A study of Homo sapiens with 12 samples.

Results

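The transcriptome described here is that of HK-2 cells carrying the Luc976 short hairpin RNA, the control cells of a study of kidney tubule cells. The 3 libraries labelled Luc976 were taken, out of 12 libraries in 4 groups, and no other group enters any value. HK-2 is an established line of human proximal tubule epithelial cells, immortalised with genes of a human papillomavirus. The other groups carry hairpins named after VHL, after KIM-1 or after both, and Luc976 was read as the control on the strength of its name alone, which looks to be short for luciferase, an insect enzyme with no human counterpart. Per the labels' protocols, libraries were prepared with an Illumina TruSeq RNA kit from RNA extracted in Trizol. The sources used here do not give the culture conditions, the vector, the hairpin's sequence, whether the cells were recloned, or whether the 3 libraries came from separate cultures. The spread between them may therefore be technical.

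The proximal tubule is the first stretch of the nephron. Its cells carry a brush border of microvilli, take up filtered proteins through the receptors megalin and cubilin, and bring back glucose, phosphate, amino acids and bicarbonate through dedicated carriers. They also make glucose and burn fatty acids. After injury the same cells lose parts of this equipment, switch on KIM-1 (gene HAVCR1), vimentin and matrix genes, and divide. Cultured tubule lines keep some of these features and lack others.

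Levels are given as TPM, the usual unit of transcript abundance, which is scaled for transcript length and library total, and levels of different genes are compared on that scale. A run of 3 values follows the order of libraries 1, 2 and 3, and ± gives the SD over these 3 libraries (n = 3). A gene is called on with at least 1 TPM in all 3 libraries, silent below 0.1 TPM in all 3, high with at least 100 TPM in all 3, and intermediate otherwise. The libraries held 19232696, 19743871 and 17094588 counts, 56071154 in all. A gene listed at 0 counts in all 3 libraries could still stand at up to 0.0535 CPM (counts scaled by the library total alone), the value of 3 counts in the summed libraries, and this limit covers counting error only.

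Library 2 stood apart from the other two. Over genes with at least 20 summed counts, the chi-square statistic per gene was 6.39 between libraries 1 and 2, 7.23 between 2 and 3, and 2.72 between 1 and 3, so no pair agreed within sampling noise. Among genes on with a transcript in GENCODE 29 (12370 genes, 98%), the deviation of a library's log2 level from the mean of the 3 followed transcript GC content, with a Spearman correlation across genes of -0.66 in library 2, 0.31 in library 1 and 0.52 in library 3. In library 2 the median deviation was 0.09 log2 units in the GC quartile with the lowest content (median GC 39.2%) and -0.09 in that with the highest (median GC 60.6%). It was -0.004 and 0.060 in library 1, and -0.083 and 0.036 in library 3. The deviations of a gene from the mean of the 3 libraries cancel out. A trend in one library thus brings opposite trends in the others, and the correlations are not separate measures. Genes are not independent replicates, and the part of GC content in any single level was not tested. The biological coefficient of variation, fitted with edgeR, was 6.08% over 13468 genes with all 3 libraries and 3.5% without library 2. The median coefficient of variation was 4.87% among genes at 100 TPM and over, 6.24% from 10 to 100 TPM, 10.3% from 1 to 10 TPM and 37.8% from 0.1 to 1 TPM. Levels below 1 TPM are therefore known only roughly.

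**Figure D1:**
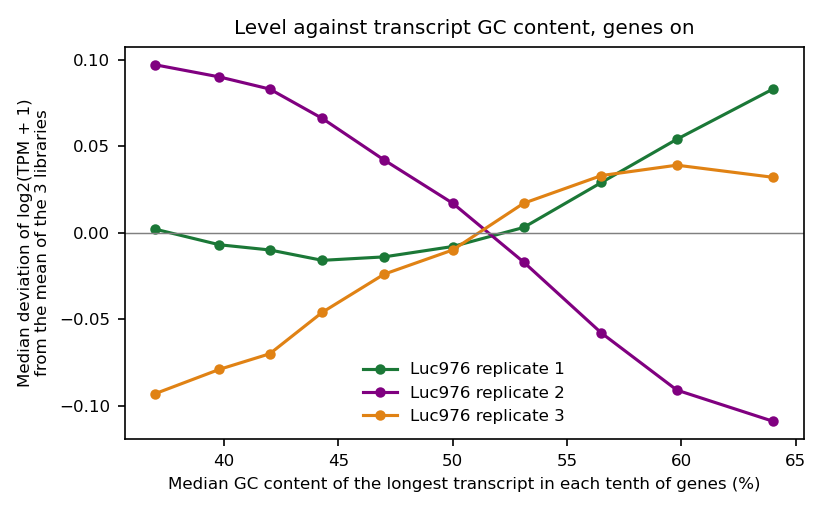
Median deviation of log2(TPM + 1) from the mean of the 3 Luc976 libraries (y axis) against the median GC content of the longest transcript (x axis, percent) in each decile of the genes on, 1 line per library. Library 2 is lower in each GC decile than in the one before it, while libraries 1 and 3 lie higher in the GC-rich deciles than in the middle ones.

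Of the 26506 genes in the table, 12619 were on (47.6%), 10005 were silent (37.7%), 8633 were listed at 0 counts in all 3 libraries (32.6%) and 1557 were high (5.87%). Without library 2 the number on was 12708, against 12720 without library 1 and 12722 without library 3. As a gene must reach the limit in every library, leaving any library out can only raise such counts. Among the 19005 genes that RefSeq names as protein-coding, 11751 were on (61.8%), 4773 were silent (25.1%) and 3773 were at 0 counts (19.9%), and these genes held 97.6% of all TPM. Long non-coding RNA genes were on less often, at 447 of 3043 (14.7%). None of 1836 microRNA genes was on, and 1831 of them were listed at 0 counts. These are TruSeq RNA and not small RNA libraries, so the counts do not show whether mature microRNAs were present. The median TPM of all genes was 0.782, and that of genes on was 18.4. The mean level was 5097 TPM at rank 10, 1721 at rank 100, 159 at rank 1000, 26.7 at rank 5000 and 5.39 at rank 10000. The 100 most abundant genes took 32.6%, 32.9% and 33.3% of all TPM.

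**Figure D2:**
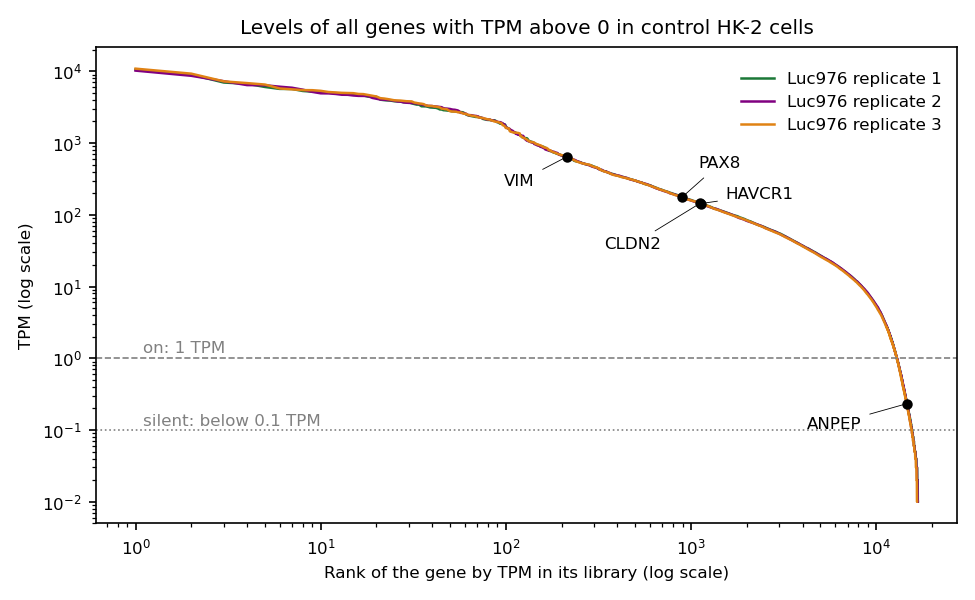
TPM of every gene above 0 (y axis, log scale) against its rank in its library (x axis, log scale), 1 line per Luc976 library, with the mean levels of 5 marker genes as points. The 3 lines lie over one another; VIM, PAX8, CLDN2 and HAVCR1 stand above 100 TPM and ANPEP lies between the lines for silent and on.

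Of the 5 genes given as marks of these cells, 4 were high and 1 was not on. VIM, the intermediate filament protein of mesenchymal and dedifferentiated epithelial cells, had 655, 644 and 628 TPM, rank 213. PAX8, a transcription factor of the nephron lineage, had 185, 164 and 178 TPM, rank 895. CLDN2, the claudin that forms the cation pore of the proximal tubule junction, had 139, 146 and 148 TPM, rank 1117. These 3 genes kept the same order in every library, and no library of one reached into the range of the next. HAVCR1, which encodes the phosphatidylserine receptor KIM-1 of injured tubule cells, had 134, 160 and 135 TPM, rank 1128. Its libraries overlapped those of CLDN2, with a ratio of CLDN2 to HAVCR1 of 1.01 ± 0.0931. ANPEP, the aminopeptidase N of the brush border, had 0.34, 0.17 and 0.19 TPM from 12, 6 and 6 counts, rank 14657, and so went against its use as a mark of these cells. Without library 2 the means, in the order in which the genes are given here, were 641, 182, 144, 135 and 0.265 TPM.

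The RefSeq promoters of the markers differ in CpG content. The windows below hold the bases before the annotated start and are given on the gene's strand, with every CpG in capitals, since CpG-rich promoters are the common type of widely used genes. HAVCR1 (GRCh38.p14, chr5:157059117-157059366, minus strand) is shown as a high gene with few CpGs, VIM (chr10:17227991-17228240, plus strand) and PAX8 (chr2:113278922-113279171, minus strand) as high genes with more, TMSB10 (chr2:84905406-84905655, plus strand) as the most abundant gene, and ANPEP as a gene below 1 TPM with a CpG-rich window at its first RefSeq start (chr15:89814853-89815102, minus strand).
HAVCR1: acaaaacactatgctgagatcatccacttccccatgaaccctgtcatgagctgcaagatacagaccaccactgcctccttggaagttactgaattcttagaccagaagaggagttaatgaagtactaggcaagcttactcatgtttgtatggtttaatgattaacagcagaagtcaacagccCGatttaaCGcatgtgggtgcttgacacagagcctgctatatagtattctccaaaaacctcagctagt
VIM: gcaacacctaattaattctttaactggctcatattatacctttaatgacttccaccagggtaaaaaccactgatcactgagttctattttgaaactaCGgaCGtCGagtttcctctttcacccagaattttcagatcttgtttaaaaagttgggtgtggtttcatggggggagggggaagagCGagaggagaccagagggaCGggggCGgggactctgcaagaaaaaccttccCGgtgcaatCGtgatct
PAX8: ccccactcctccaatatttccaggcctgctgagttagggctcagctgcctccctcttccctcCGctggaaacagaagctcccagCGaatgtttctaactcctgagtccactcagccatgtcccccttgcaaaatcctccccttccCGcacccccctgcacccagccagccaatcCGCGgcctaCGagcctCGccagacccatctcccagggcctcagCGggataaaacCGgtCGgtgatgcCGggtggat
TMSB10: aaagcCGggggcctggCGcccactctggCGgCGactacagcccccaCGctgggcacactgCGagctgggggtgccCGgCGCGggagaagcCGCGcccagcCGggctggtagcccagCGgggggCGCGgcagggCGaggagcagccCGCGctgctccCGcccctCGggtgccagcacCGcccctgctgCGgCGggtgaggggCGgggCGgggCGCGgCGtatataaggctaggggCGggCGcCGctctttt
ANPEP: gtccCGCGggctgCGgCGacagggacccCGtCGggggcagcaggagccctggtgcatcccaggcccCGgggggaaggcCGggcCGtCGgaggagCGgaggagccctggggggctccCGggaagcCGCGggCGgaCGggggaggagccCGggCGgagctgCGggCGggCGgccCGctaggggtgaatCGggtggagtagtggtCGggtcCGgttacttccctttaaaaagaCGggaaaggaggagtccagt
The ratio of observed to expected CpG was 0.17 in HAVCR1, 0.61 in VIM, 0.52 in PAX8, 0.82 in TMSB10 and 0.82 in this window of ANPEP. The second RefSeq start of ANPEP had a ratio of 0.36, and the starts of CLDN2, which are not printed, had 0.00 and 0.07. Across the 11192 protein-coding genes with 1 RefSeq start the median ratio was 0.75. It was 0.87 for 909 high genes, 0.84 for 5943 genes on below that level, 0.56 for 1376 intermediate genes, 0.47 for 563 silent genes with a count and 0.26 for 2401 genes at 0 counts. The CpG ratios of the HAVCR1 and CLDN2 windows were thus nearer to genes at 0 counts than to other high genes. The first window of ANPEP lay near the high genes, and its second lay between genes at 0 counts and silent genes with a count. ANPEP and CLDN2 have 2 RefSeq starts each, while the classes hold only genes with 1 start. Which start these cells use was not tested. The letters TATAAA, 21 to 40 bases before the start on the gene's strand, were in 4.07% of high genes, 1.3% of genes on below that level, 7.34% of intermediate genes, 4.97% of silent genes with a count and 10.3% of genes at 0 counts, against 4.39% of all these promoters. No marker window held them.

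The most abundant mRNAs encoded small actin-binding proteins, glycolytic enzymes, cytoskeletal proteins and parts of the ribosome. TMSB10, thymosin beta 10, a small protein that binds actin monomers, led with 10574, 10219 and 10879 TPM. GAPDH, the glycolytic dehydrogenase, had 9000, 8651 and 9267 TPM, below TMSB10 in each library. RPS18 of the small ribosomal subunit had 6695, 7275 and 7232 TPM. These 3 genes did not overlap, and they were the only neighbours among the 20 highest genes that did not. Of the 19 neighbour pairs 17 overlapped, so the order of neighbours from rank 3 down is not resolved. RPS18 overlapped ACTB, the next gene, which was higher in library 1. ACTB, beta actin, had 6964, 6418 and 6843 TPM, with counts that were not whole, as an estimate can give where reads can be assigned to more than 1 gene. The ribosomal protein gene RPL41 had 6043, 6385 and 6532 TPM, and RPS27 had 5144, 6096 and 5762 TPM. Library 2 was the highest for RPS18 and RPS27 and the lowest for TMSB10, GAPDH and ACTB. RPL37A had 5667, 5544 and 5601 TPM, with the smallest SD of the 20 genes. EEF1A1, the elongation factor that brings aminoacyl-tRNA to the ribosome, had 5197, 5897 and 5451 TPM. RPS2 had 5682, 5164 and 5463 TPM, and RPL7A had 5033, 4917 and 5340 TPM. The levels of these 4 genes lay within the range of 4917 to 5897 TPM in all libraries. RPL8 had 5313, 4540 and 5005 TPM. ENO1, enolase 1 of glycolysis, had 4882, 4833 and 5144 TPM, and TMSB4X, thymosin beta 4, had 4793, 4930 and 4954 TPM. FTL, the light chain of the iron store ferritin, had 4963, 4513 and 5064 TPM. Library 2 was the lowest of the 3 for RPL8, ENO1 and FTL. RPLP0 of the ribosomal stalk had 4843, 4700 and 4971 TPM, RPL19 had 4745, 4536 and 4830 TPM and RPL12 had 4402, 4710 and 4806 TPM. TUBA1B, an alpha tubulin, had 4434, 4597 and 4683 TPM. MT2A, the main human metallothionein, had 4610, 3952 and 4571 TPM, and RPL35 had 4426, 4039 and 4450 TPM. In both of the last genes library 2 was again the lowest. Ribosomal protein genes made up 11 of these 20 genes and 59 of the 100 highest, and the 92 ribosomal protein genes together took 21.1%, 21.5% and 21.5% of all TPM.

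Ranks depend on the length scaling that TPM carries. By CPM, with no length scaling, TMSB10 ranked 19 and MT2A 169, while EEF1A1 ranked 2 and GAPDH 3. Fibronectin, FN1, held the most counts of the genes named here, at 272367, 282746 and 249034, and ranked 39 by TPM with 3242, 3276 and 3297 TPM. Some high values sit on sequences with near copies. RPL13AP5, an annotated pseudogene of RPL13A, had 3931, 3384 and 3940 TPM, against 703, 783 and 742 TPM for RPL13A itself, and both had counts that were not whole, so the split between them is uncertain.

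Of 22 brush border and endocytosis genes, 12 were on (54.5%), 7 were silent (31.8%) and 4 were listed at 0 counts, against the 61.8% on and 25.1% silent of all protein-coding genes. EZR, ezrin, which ties the microvillar membrane to actin, had 470, 453 and 477 TPM. GGT1, the gamma-glutamyltransferase of the brush border, had 143, 120 and 139 TPM with counts that were not whole. SLC9A3R1, the scaffold protein NHERF1, had 69.9, 67 and 70.4 TPM. Each of the 3 genes was clear of the next in every library. PDZK1, a second brush border scaffold, had 54.6, 66.1 and 56 TPM, the glutamyl aminopeptidase ENPEP had 35.2, 34.9 and 31.5 TPM, and the dipeptidyl peptidase DPP4 had 22.6, 25.8 and 22.7 TPM. MME, neprilysin, stood lower, at 4.2, 5.3 and 4.04 TPM. Among the receptors of protein uptake, LRP2 (megalin) was listed at 0 counts in all 3 libraries, and CUBN (cubilin) had 5, 2 and 2 counts. Their partner AMN had 1.31, 1.14 and 1.08 TPM, just above the limit for on, and DAB2, the adaptor of megalin, had 6.08, 6.52 and 6.3 TPM. The receptor partner LRPAP1 had 25.8, 21.4 and 24.2 TPM, so the chaperone and the adaptor were on while megalin and cubilin were silent. VIL1, villin, had 0, 2 and 1 counts, and MEP1A and TREH, both brush border hydrolases, were listed at 0 counts.

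Of 33 carriers and channels typical of the proximal tubule, 9 were on (27.3%), 16 were silent (48.5%) and 12 were listed at 0 counts. SLC2A2, the basolateral glucose carrier GLUT2, had 58.1, 67.6 and 60.5 TPM. SLC7A7, a basolateral carrier of cationic amino acids, had 14.7, 16.4 and 15.4 TPM. SLC17A3, an apical carrier of urate and organic anions, had 5.57, 6.81 and 4.59 TPM. Library 2 was the highest of the 3 for each of these genes, and the genes did not overlap. SLC4A4, the basolateral sodium bicarbonate carrier NBCe1, had 3.85, 3.98 and 3.67 TPM. SLC34A1, the main apical phosphate carrier, had 0.64, 0.56 and 0.35 TPM from 14, 13 and 7 counts, and SLC5A2, the glucose carrier SGLT2, had 0.43, 0.27 and 0.62 TPM. Both were below the limit for on in every library. AQP1, the water channel of the proximal tubule, had 1 count in 1 library. The organic anion carriers SLC22A6 and SLC22A8, the sodium-proton exchanger SLC9A3, the glucose carrier SLC5A1, the neutral amino acid carrier SLC6A19, the cation extruder SLC47A1 and the phosphate carrier SLC34A3 were all listed at 0 counts in all 3 libraries.

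Carriers used by most cells were present throughout: 17 of 17 were on and 9 were high. SLC25A5, a mitochondrial ADP/ATP carrier, had 797, 796 and 826 TPM. The mitochondrial phosphate carrier SLC25A3 had 663, 766 and 661 TPM. SLC16A3, which exports lactate, had 349, 308 and 338 TPM. All 3 genes stood above every proximal tubule carrier of the previous list. SLC2A1, the widely used glucose carrier GLUT1, had 154, 140 and 152 TPM. The ratio of SLC2A1 to SLC2A2 was 2.41 ± 0.304. The phosphate carrier SLC20A1, which many cell types use, had 164, 173 and 161 TPM, and its relative SLC20A2 had 9.2, 10.1 and 10.4 TPM. Among SLC20A1, SLC20A2, SLC34A1 and SLC34A3, only SLC20A1 was high. Among 8 drug efflux pumps 7 were on. ABCC5 had 42.2, 42.6 and 41.2 TPM, ABCC1 had 30.2, 27.2 and 30.2 TPM and ABCC4 had 18, 18.6 and 16.9 TPM, without overlap. ABCB1, P-glycoprotein, had 6.48, 6.92 and 6.69 TPM, and ABCC2, an apical pump of the proximal tubule, had 1.13, 1.19 and 0.88 TPM and fell below 1 TPM in library 3.

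Of 28 genes of proximal tubule metabolism 11 were on (39.3%), 13 were silent (46.4%) and 8 were at 0 counts. GPX3, the plasma glutathione peroxidase that the proximal tubule secretes, had 95.4, 95 and 90.1 TPM. DCXR, a xylulose reductase of kidney, had 79.8, 65.4 and 73.4 TPM. MIOX, the myo-inositol oxygenase of the proximal tubule, had 38.7, 30 and 33.6 TPM. The 3 genes did not overlap, and library 1 was the highest for each. GATM, which makes the creatine precursor guanidinoacetate, had 5.38, 5.32 and 5.14 TPM, and the vitamin D hydroxylases CYP24A1 and CYP27B1 had 1.67, 1.92 and 1.2 TPM and 0.59, 0.74 and 0.89 TPM. PCK1, FBP1, FABP1 and BHMT, enzymes and a binding protein of glucose, fatty acid and betaine metabolism, were all listed at 0 counts. G6PC had 1 count in 1 library.

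The list of gluconeogenesis and fatty acid oxidation had 19 of 27 genes on (70.4%) and 6 silent. ACADVL, the very long chain acyl-CoA dehydrogenase, had 246, 234 and 255 TPM. HADHA of the trifunctional protein had 192, 211 and 201 TPM, and the electron carrier ETFB had 161, 135 and 160 TPM. These mitochondrial genes kept their order in every library. Related enzymes stood apart in some pairs and not in others. PCK2, the mitochondrial carboxykinase, had 33.7, 29 and 34.4 TPM, while PCK1 was at 0 counts. G6PC3, the widely used glucose-6-phosphatase, had 101, 88.7 and 96.3 TPM, while G6PC had 1 count. CPT1A, the carnitine transferase that admits fatty acids to mitochondria, had 0.93, 1.09 and 1.5 TPM and was intermediate, its relative CPT1B had 12, 10.9 and 9.54 TPM with counts that were not whole, and CPT2 had 12.4, 13.4 and 12.6 TPM. FBP1 and FBP2, the fructose bisphosphatases, were both at 0 counts.

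**Figure D3:**
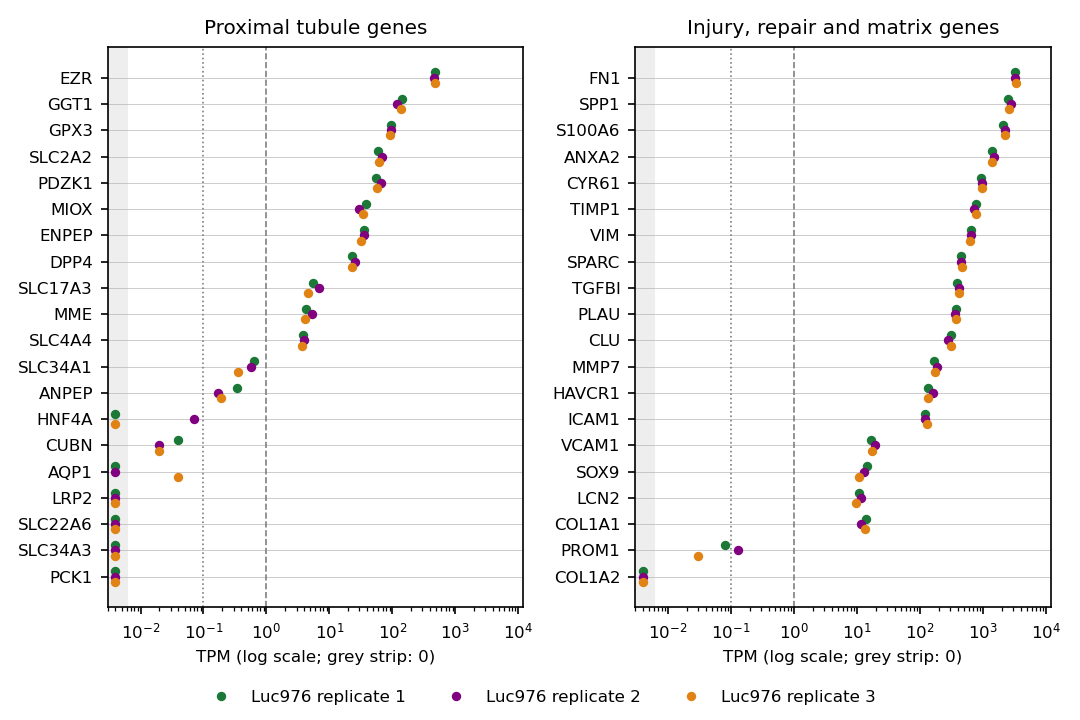
TPM (x axis, log scale, with values of 0 in the grey strip) of 20 proximal tubule genes (left) and 20 injury, repair and matrix genes (right) in each of the 3 Luc976 libraries; dashed and dotted lines mark 1 and 0.1 TPM. LRP2, SLC22A6, SLC34A3 and PCK1 are at 0 in every library, while FN1, SPP1, S100A6 and ANXA2 lie highest in the right panel.

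Kidney lineage transcription factors were divided. Of 33 genes 18 were on (54.5%), 9 were silent (27.3%) and 5 were at 0 counts. PAX8, given above, led. SALL1, a factor of nephron progenitors, had 84.1, 76.9 and 81.4 TPM. HNF4A, a regulator of proximal tubule differentiation, had 1 count in 1 library, and its relative HNF4G had 2.22, 2.33 and 3.06 TPM. PAX2, the relative of PAX8 in nephron progenitors, had 2, 1 and 0 counts. WT1, SIX2, CITED1, EYA1 and OSR1 mark nephron progenitors, and only OSR1 was on, at 2.07, 1.2 and 2.18 TPM. LHX1 had 16.6, 15.4 and 14.1 TPM and SOX9, which repairing tubule cells turn on, had 14.4, 12.7 and 10.9 TPM. IRX3 had 19.4, 18.6 and 18.6 TPM while its relatives IRX1 and IRX2 were at 0 counts. The coactivator PPARGC1A, a regulator of mitochondrial genes, had 2.72, 3.5 and 3.08 TPM.

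Of 39 HOX genes, which encode the positional transcription factors of the body axis, 28 were on (71.8%), 5 were silent (12.8%) and 3 were listed at 0 counts. HOXA9 had 69.4, 76.7 and 63.7 TPM, HOXB2 had 50.9, 49 and 46.9 TPM and HOXB7 had 42, 40.4 and 39.4 TPM. HOXA9 stood above both others in every library. By cluster, 10 of 11 HOXA genes and 9 of 10 HOXB genes were on, against 3 of 9 HOXC genes and 6 of 9 HOXD genes. The summed level was 181 ± 7.79 TPM for HOXA, 192 ± 6.19 for HOXB, 23.6 ± 0.693 for HOXC and 31.3 ± 0.461 for HOXD. Library sums of HOXA and HOXB overlapped, and both lay above those of HOXD and HOXC in every library. Of the last genes of the clusters, HOXC12 and HOXD12 were at 0 counts, HOXA13 and HOXD13 were silent and HOXC13 was intermediate, while HOXB13 was on at 3.84, 3.17 and 4.58 TPM. HOXB1, at the other end of its cluster, was at 0 counts. HOXD10 had 7.56, 4.83 and 6.24 TPM and HOXD11 7.89, 9.69 and 8.46 TPM, beside the low HOXD12 and HOXD13.

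**Figure D4:**
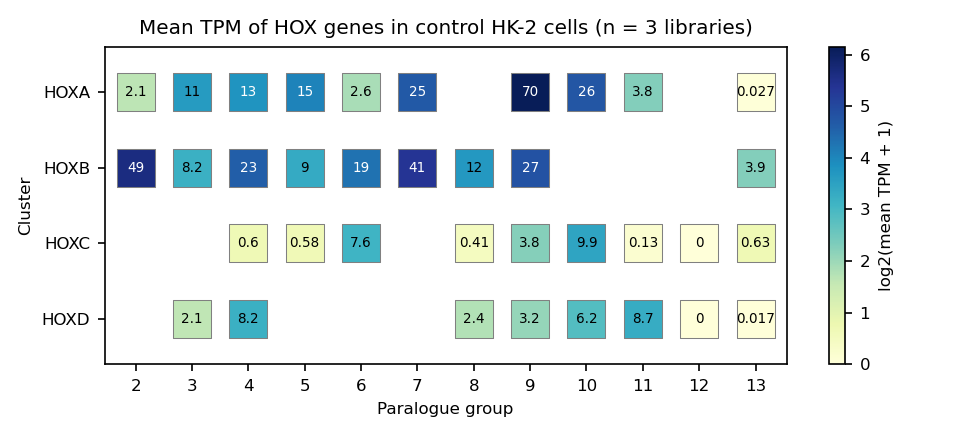
Mean TPM over 3 Luc976 libraries of the HOX genes of paralogue groups 2 to 13, by cluster (rows) and group (columns), with colour on the scale of log2(mean TPM + 1) and the mean TPM written in each tile. HOXA9 (70 TPM) and HOXB2 (49 TPM) are the darkest tiles, and most HOXC tiles are pale.

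Of 34 nuclear receptors 21 were on, in the same share as protein-coding genes at large (61.8%). NR2F6, an orphan receptor, had 78.7, 76.5 and 75.6 TPM. NR1H2, a liver X receptor, had 50.5, 42.8 and 51.5 TPM, and RXRB, a partner of many receptors, had 37.4, 40.1 and 40.7 TPM. NR1H2 was lowest in library 2 and RXRB lowest in library 1, and NR2F6 stood above both in each. The vitamin D receptor VDR had 6.85, 6.19 and 6.88 TPM, the glucocorticoid receptor NR3C1 6.68, 6.69 and 6.58 TPM and the mineralocorticoid receptor NR3C2 3, 3.41 and 2.45 TPM. PPARG had 30, 32 and 27.2 TPM and PPARA, the regulator of fatty acid oxidation, 3.16, 3.05 and 2.93 TPM. The bile acid receptor NR1H4 was intermediate, at 0.59, 0.67 and 0.45 TPM, and RARB, RXRG and PGR were at 0 counts while RARA, RARG, RXRA and RXRB were on.

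Most markers of other nephron segments were not on. Of 10 markers of the thick ascending limb and distal tubule 1 was on (10%) and 6 were at 0 counts, among them UMOD (uromodulin), SLC12A1 and CALB1, and their summed level was 2.02, 1.37 and 2.81 TPM. CLDN16, a claudin of the thick ascending limb, had 1.49, 1.17 and 1.55 TPM. Of 15 collecting duct markers 2 were on (13.3%; 3 without library 2) and 6 were at 0 counts. SCNN1A, the alpha subunit of the epithelial sodium channel, had 228, 222 and 236 TPM, while SCNN1B and SCNN1G, the beta and gamma subunits, were listed at 0 counts in all 3 libraries. HSD11B2, which inactivates cortisol, had 3.44, 2.64 and 2.83 TPM. AVPR2, the vasopressin receptor of the collecting duct, had 1.04, 0.96 and 1.47 TPM and missed the limit in library 2, and the water channel AQP2 was at 0 counts. SCNN1A made up nearly all of the list's summed level of 234, 227 and 241 TPM. Of 5 podocyte markers SYNPO had 22.1, 19 and 21.8 TPM and PODXL 2.62, 2.6 and 2.68 TPM, and the slit diaphragm gene NPHS1 was silent. Of 8 urothelial markers 1 was on, UPK3B, at 1.57, 1.45 and 1.57 TPM, and KRT5 and UPK3A were at 0 counts.

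Of 36 epithelial junction and polarity genes 25 were on (69.4%, against 61.8% of protein-coding genes), 4 were silent (11.1%) and 3 were at 0 counts. CTNNB1, beta-catenin, had 299, 328 and 301 TPM, CD24, a surface protein of tubule and progenitor cells, had 263, 284 and 258 TPM, and ELF3, an epithelial transcription factor, had 76.5, 70.9 and 78 TPM. CTNNB1 stood above CD24 in every library. The cell adhesion molecule EPCAM had 53, 58.6 and 47 TPM. Among cadherins, CDH2 (N-cadherin, the classical cadherin of the human proximal tubule) had 44.8, 47 and 44.9 TPM, CDH6, a cadherin of proximal tubule precursors, had 37.2, 42.3 and 37.6 TPM, and CDH16, the kidney cadherin, had 9.73, 9.37 and 10.2 TPM. E-cadherin, CDH1, had 2.84, 3.74 and 3.02 TPM. The ratio of CDH2 to CDH1 was 14.4 ± 1.65, that of CDH6 to CDH1 was 12.3 ± 0.912 and that of CDH2 to CDH16 was 4.68 ± 0.312, and none of these pairs overlapped. The tight junction protein TJP1 had 37.9, 41.1 and 36.7 TPM and occludin, OCLN, 0.59, 0.64 and 0.46 TPM. Of the epithelial splicing factors ESRP2 was on at 26.8, 23.4 and 27.1 TPM and ESRP1 was intermediate at 0.44, 0.37 and 0.3 TPM. GRHL2 and OVOL1, transcription factors that keep the epithelial state, and the mesenchymal cadherin CDH11 were at 0 counts.

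Of 23 claudins, the proteins that set the permeability of tight junctions, 7 were on (30.4%), 12 were silent (52.2%) and all of these 12 were at 0 counts. CLDN11 had 225, 209 and 212 TPM, and CLDN1, a sealing claudin, had 187, 200 and 174 TPM. CLDN2, given above, followed. CLDN11 stood above CLDN1 in every library, and the ratio of CLDN11 to CLDN2 was 1.5 ± 0.104 and that of CLDN1 to CLDN2 was 1.3 ± 0.106. CLDN10, a channel-forming claudin that the proximal tubule also uses, was listed at 0 counts. CLDN4 had 40.1, 37.8 and 41.6 TPM, while CLDN3 and CLDN7, with which it is often found in the distal nephron, had 0.17, 0.17 and 0.95 TPM and 0.22, 0.51 and 0.17 TPM. The 3 highest keratins were those of simple epithelia. Of 24 keratins listed 8 were on (33.3%) and 12 were silent (50%). KRT8 had 950, 850 and 980 TPM, its partner KRT18 668, 637 and 692 TPM, and KRT19 531, 457 and 501 TPM. The 3 genes did not overlap, and library 2 was the lowest for each. The ratio of KRT8 to KRT18 was 1.39 ± 0.0491. KRT80 had 98, 93.4 and 98 TPM. KRT10 and KRT15, keratins known from stratified epithelia, had 9.91, 11.7 and 9.72 TPM and 7.98, 6.86 and 8.69 TPM, and the hair keratin KRT81 had 7.71, 7.73 and 7.92 TPM with counts that were not whole. KRT7, a keratin of collecting duct and urothelium, was the lowest of the 8 by mean, at 5.52, 4.46 and 6.15 TPM. KRT5, KRT14 and KRT6A, other keratins of stratified epithelia, were at 0 counts.

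Of 33 mesenchymal and matrix genes 26 were on (78.8%), 9 were high, 4 were silent (12.1%) and 3 were at 0 counts. FN1, given above with its counts, had a coefficient of variation between libraries of 0.838%. CYR61, a secreted matricellular protein, had 935, 961 and 974 TPM, and VIM followed. The ratio of KRT8 to VIM was 1.44 ± 0.121, without overlap, so the keratin and the vimentin message were of the same order, while the ratio of VIM to CDH1 was 204 ± 29.5. Basement membrane collagen was high: COL4A2 had 507, 429 and 502 TPM and COL4A1 318, 290 and 324 TPM, with a ratio of 1.54 ± 0.0576. SPARC, a collagen-binding glycoprotein, had 445, 450 and 461 TPM, and TGFBI had 390, 412 and 419 TPM. Fibrillar collagen was low or at 0 counts. COL1A1 had 13.7, 11.4 and 13.4 TPM, while its partner chain COL1A2 was listed at 0 counts in all 3 libraries and COL3A1 had 1 count. Of the transcription factors linked to epithelial-mesenchymal transition, SNAI1 had 18.2, 15.8 and 16.4 TPM, TWIST1 6.81, 6.25 and 7.72 TPM, ZEB1 6.36, 6.99 and 6.49 TPM and SNAI2 5.41, 5.75 and 5.02 TPM. TWIST2 and the fibroblast protease FAP were at 0 counts. ACTA2, the smooth muscle actin of myofibroblasts, had 1.7, 1.83 and 2.07 TPM and TAGLN 2.21, 2.29 and 2.74 TPM, both near the lower limit for on.

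Markers of other cell types were mainly at or near 0, with single genes on. In bulk RNA, few cells with much of a message and many cells with little of it cannot be told apart. Of 10 endothelial markers none was on, 7 were silent, and the summed level was 1.02, 1.24 and 0.93 TPM. Of 10 fibroblast and pericyte markers 3 were on, and the sum was 107, 113 and 94.8 TPM. LUM, lumican, a proteoglycan of collagen fibrils, had 99.9, 105 and 87.5 TPM, DCN, decorin, 2.67, 3.4 and 2.81 TPM and RGS5 2.75, 3.19 and 2.62 TPM. LUM alone made up most of that sum, while PDGFRA and PDPN were silent and PDGFRB was intermediate, at 0.41, 0.37 and 0.38 TPM. Of 14 immune markers 3 were on and 6 were at 0 counts, with a sum of 136, 134 and 141 TPM. CD68, a lysosomal protein of macrophages, had 123, 123 and 129 TPM, CD14 9.3, 8.55 and 9.63 TPM and LYZ 2.73, 1.28 and 1.94 TPM. The defining leukocyte gene PTPRC (CD45), and TYROBP, C1QA, CD3E and MS4A1, were listed at 0 counts in all 3 libraries. Of 14 markers of other tissues 1 was on (2 without library 2), with a sum of 16.5, 14.2 and 13.8 TPM. SNAP25, a vesicle fusion protein of neurons, had 11.3, 11.4 and 10.8 TPM, while the neuronal gene SYP had 0.43, 0.76 and 0.53 TPM. HBB, INS, SFTPC, TG and TTR were at 0 counts. The source of LUM, CD68, CD14 and SNAP25 messages was not tested.

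Genes of tubular injury and repair were nearly all on. Of 32 genes 30 were on (93.8%), 20 were high, 1 was silent and none was at 0 counts. The background for high is 5.87% of all genes and 8.02% of protein-coding genes. The list was assembled from genes known in injured or repairing tubules, and with earlier results of these data known. Its shares therefore cannot serve as a measure of injury in these cells. SPP1, osteopontin, had 2495, 2772 and 2548 TPM. S100A6, a calcium-binding protein, had 2071, 2247 and 2264 TPM. ANXA2, annexin A2, had 1383, 1520 and 1399 TPM with counts that were not whole. In no library did these levels overlap. The ratio of FN1 to SPP1 was 1.26 ± 0.0665. TIMP1, an inhibitor of metalloproteinases, had 762, 731 and 769 TPM, NNMT, nicotinamide N-methyltransferase, 465, 499 and 484 TPM, and CLU, clusterin, 310, 282 and 311 TPM. MMP7, matrilysin, had 168, 183 and 173 TPM and CD44, the hyaluronan receptor, 173, 176 and 167 TPM, both above HAVCR1 in every library. ICAM1 had 121, 118 and 127 TPM, VCAM1, a mark of tubule cells that fail to repair, 16.6, 19.5 and 17.1 TPM, and LCN2, the urinary injury marker NGAL, 10.6, 11.5 and 9.6 TPM. HAVCR1 was thus higher than LCN2 in each library. PROM1, a surface protein of scattered tubule cells, had 0.08, 0.13 and 0.03 TPM, and FST, follistatin, was silent.

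KIM-1 takes up dead cells by binding phosphatidylserine, and other receptors of that kind were on beside it. Of 24 genes of dead-cell uptake 17 were on (70.8%), 4 were silent (16.7%) and 2 were at 0 counts. RAC1, the small GTPase that shapes the engulfing membrane, had 291, 311 and 302 TPM. AXL, a kinase receptor that binds phosphatidylserine through GAS6, had 173, 157 and 169 TPM, above HAVCR1 in libraries 1 and 3 and below it in library 2. Its relatives MERTK and TYRO3 had 31.2, 31.6 and 30.4 TPM and 16.1, 14.9 and 15.8 TPM, and the ratio of AXL to MERTK was 5.36 ± 0.339. The bridging ligands were on too, with GAS6 at 23.7, 22.9 and 24.7 TPM, PROS1 at 43.2, 50.2 and 38.6 TPM and MFGE8 at 106, 92 and 109 TPM. Of the TIM family, TIMD4 had 2.46, 4.05 and 4.03 TPM and HAVCR2 was intermediate, at 0.13, 0.32 and 0.15 TPM, so the ratio of HAVCR1 to TIMD4 was 42.5 ± 10.9. SCARB1, a lipoprotein receptor, had 143, 130 and 142 TPM, while the scavenger receptor CD36 and STAB2 were at 0 counts. Of the engulfment adaptors ELMO2 had 41.9, 44.4 and 42.8 TPM and ELMO1 had 2 counts in 1 library.

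Of 69 cytokines and growth factors 36 were on (52.2%), 19 were silent (27.5%) and 15 were at 0 counts. MIF, macrophage migration inhibitory factor, had 1900, 1646 and 1616 TPM, rank 100. AREG, amphiregulin, a ligand of the EGF receptor, had 318, 327 and 291 TPM. TNFSF10, the death ligand TRAIL, had 231, 255 and 239 TPM. Each of them was clear of the next in all 3 libraries. A run of EGF receptor ligands was on: EREG had 95.8, 102 and 92.9 TPM, TGFA 41.9, 43.8 and 42 TPM and HBEGF 13.9, 13.3 and 14.4 TPM, against 1.01, 1.35 and 1.27 TPM for EGF itself. BTC, betacellulin, another such ligand, was intermediate, at 0.53, 0.37 and 0.29 TPM. The ratio of AREG to EREG was 3.21 ± 0.092. IL32 had 201, 201 and 216 TPM, IL18 53.4, 58.1 and 55.6 TPM and LIF 83.7, 78.2 and 84.4 TPM. CSF2, the granulocyte-macrophage factor GM-CSF, had 55.2, 45.5 and 54.3 TPM and IL6 had 49.8, 46.2 and 44.7 TPM. The libraries of this pair overlapped, with a ratio of CSF2 to IL6 of 1.1 ± 0.116. CSF1 had 46.1, 42.9 and 48.3 TPM, IL11 15.1, 11.5 and 13.6 TPM and IL23A 11, 9.66 and 8.91 TPM. TNF was intermediate, at 0.89, 1.06 and 1.49 TPM, and the interleukin-1 genes IL1A and IL1B were near 0, at 0.14, 0.03 and 0 TPM and 0.07, 0 and 0.16 TPM. IL33 and TSLP, alarm cytokines of other epithelia, and CSF3, HGF, FGF7, IFNB1 and IFNG were listed at 0 counts. VEGFA had 145, 138 and 144 TPM, PDGFB 27.7, 24.9 and 25.8 TPM and GDF15 65, 61.5 and 65.7 TPM. TGFB2 had 61.6, 67 and 60.4 TPM and TGFB1 59.7, 54.4 and 56.5 TPM, with TGFB2 above TGFB1 in each library and a ratio of 1.11 ± 0.107, and TGFB3 had 1.23, 1.34 and 1.3 TPM. EPO had 0.08, 0 and 0.18 TPM.

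Of 28 chemokines 10 were on (35.7%), 15 were silent (53.6%) and 14 were at 0 counts. CXCL8, interleukin-8, which draws neutrophils, had 59.6, 70.6 and 61 TPM. CX3CL1, fractalkine, had 24, 23.1 and 25.3 TPM and CXCL2 23.9, 22.4 and 22.2 TPM. CX3CL1 and CXCL2 overlapped, and CXCL8 stood above both, with a ratio to CXCL2 of 2.8 ± 0.334. CCL5 had 9.18, 10.7 and 7.93 TPM, CCL20 1.9, 1.32 and 1.21 TPM and CCL2, the monocyte chemokine, 1.4, 1.21 and 1.21 TPM. CXCL1, a close copy of CXCL2, had 0.1, 0.45 and 0 TPM, and both had counts that were not whole, so the split between them is uncertain. The interferon-induced chemokines CXCL9, CXCL10 and CXCL11 and the stromal chemokine CXCL12 were at 0 counts.

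Of 45 cytokine receptors 36 were on (80%), 7 were silent and all of these 7 were at 0 counts. TNFRSF1A, the main receptor of TNF, had 212, 205 and 221 TPM. LTBR, the lymphotoxin beta receptor, had 214, 183 and 212 TPM, and IL20RB 182, 200 and 186 TPM. These 3 genes overlapped in part. The receptor chains for oncostatin M and LIF were on, with OSMR at 63, 64 and 61 TPM, IL6ST (gp130) at 16.6, 19.6 and 16.3 TPM and LIFR at 4.85, 5.49 and 4.81 TPM, and IL6R had 20.8, 22.1 and 21.1 TPM. IL1R1 had 8.23, 8.2 and 7.96 TPM and the decoy receptor IL1R2 7.04, 7.21 and 6.75 TPM. The transforming growth factor receptor TGFBR2 had 62.2, 66.3 and 61.2 TPM, against 3.4, 2.67 and 2.78 TPM for TGFBR1. The interferon receptor chains IFNGR2, IFNGR1, IFNAR1 and IFNAR2 were all on. The chemokine receptors CXCR4, CXCR2, CCR2 and ACKR3 were at 0 counts.

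Of 37 receptor tyrosine kinases 20 were on (54.1%), 10 were silent (27%) and 5 were at 0 counts. AXL was the only high one. EPHA2 had 109, 94.4 and 106 TPM and FGFR1 101, 93.6 and 100 TPM, and these overlapped. MET, the receptor of hepatocyte growth factor, had 93.8, 97.3 and 89.6 TPM, and DDR1, a collagen receptor, 95.2, 85.6 and 98.5 TPM. HGF itself was at 0 counts, as given above. EGFR had 28.2, 25.6 and 27.4 TPM and ERBB2 33, 28.4 and 34.9 TPM, while ERBB4 had 1 count. FGFR4 had 54.4, 49.9 and 55.4 TPM, with a ratio of FGFR1 to FGFR4 of 1.84 ± 0.0369. KDR, KIT and ALK were at 0 counts.

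Of 39 G protein-coupled receptors with a role in tubules 21 were on (53.8%; 22 without library 2), 10 were silent (25.6%) and 7 were at 0 counts. GPRC5C had 97.1, 77.6 and 96.3 TPM, GPRC5A 77.5, 77 and 76.8 TPM and PTGER2, a prostaglandin E2 receptor, 59, 51 and 52.6 TPM. GPRC5C stood above GPRC5A in every library, in library 2 by less than 1 TPM, and PTGER2 stood below both. ADORA1, an adenosine receptor, had 39.6, 36.5 and 39.8 TPM. PTH1R, the parathyroid hormone receptor of the proximal tubule, was on at 2.87, 1.71 and 2.72 TPM. AGTR1, the angiotensin II receptor, and the dopamine receptors DRD1 and DRD5 were listed at 0 counts in all 3 libraries.

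Of 25 innate sensors 14 were on (56%) and 4 were silent (16%). MAVS, the mitochondrial adaptor of RNA sensing, had 33.1, 32.7 and 32.3 TPM. MB21D1, the DNA sensor cGAS, had 25.8, 23.8 and 24.7 TPM, and MYD88, the adaptor of Toll-like receptors, 19.5, 20.7 and 19.5 TPM. No library of one reached the range of the next. TMEM173 (STING) had 3.06, 2.84 and 3.21 TPM and DDX58 (RIG-I) 5.51, 5.93 and 4.69 TPM. TLR2 had 4.36, 5.46 and 3.12 TPM and TLR3 1.98, 2.4 and 2.59 TPM, while TLR4 was intermediate, at 0.31, 0.39 and 0.54 TPM. PYCARD, the inflammasome adaptor, had 13.7, 13.2 and 14.6 TPM, but NLRP3 and CASP1, with which it acts, were intermediate, at 0.19, 0.33 and 0.12 TPM and 0.3, 0.1 and 0 TPM.

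The list of interferon-stimulated genes also holds regulators of the response such as IRF3, which is 1 of its high members. Of its 25 genes 20 were on (80%), 4 were high and 2 were silent. BST2, tetherin, had 440, 385 and 450 TPM, above IRF3 in every library, which had 147, 122 and 141 TPM. IFITM3 had 133, 121 and 136 TPM, ISG15 61.1, 49.5 and 50.9 TPM and IFI6 33.3, 32.1 and 30.8 TPM. MX1 was intermediate, at 0.78, 0.83 and 0.84 TPM, and RSAD2 and MX2 had 1 count each. The interferon genes IFNB1 and IFNG were at 0 counts, as given above.

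Of 19 genes of antigen presentation 14 were on (73.7%) and 4 were silent, all 4 at 0 counts. B2M, the light chain of class I molecules, had 900, 1016 and 891 TPM and HLA-B 450, 412 and 430 TPM, and the counts of HLA-B were not whole. The peptide transporter TAP2 had 72, 62.1 and 72.4 TPM and TAP1 22.7, 21.9 and 22.8 TPM. CD74, the invariant chain of class II molecules, had 330, 307 and 344 TPM, while the class II genes HLA-DRA and HLA-DPA1 were at 0 counts, the class II gene HLA-DMA had 24.5, 26.2 and 25.3 TPM and CIITA, their regulator, was intermediate, at 0.26, 0.18 and 0.05 TPM. CD80 and CD86, the costimulatory ligands, were at 0 counts, and CD274 (PD-L1) had 3.07, 3.81 and 2.46 TPM.

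All 21 genes of the unfolded protein and amino acid stress list were on, and 9 were high. CALR, the chaperone calreticulin, had 2089, 2127 and 2269 TPM. HSP90B1 had 980, 1032 and 872 TPM and PDIA6 782, 798 and 796 TPM. Their ranges did not meet. ATF4, the transcription factor of the integrated stress response, had 706, 734 and 732 TPM and HSPA5 (BiP) 669, 683 and 638 TPM. The ATF4 targets TRIB3 and DDIT3 (CHOP) had 169, 161 and 167 TPM and 64.1, 66.9 and 68.8 TPM. ATF3 was lowest of the list, at 5.07, 6.21 and 5.76 TPM. Of 18 heat shock genes 17 were on (18 without library 2) and 12 were high. HSP90AB1 had 2359, 2451 and 2274 TPM, HSPA8 2151, 2385 and 2142 TPM and HSP90AA1 1533, 1614 and 1356 TPM. HSP90AB1 and HSPA8 overlapped, and HSP90AA1 stood below both. The inducible pair HSPA1A and HSPA1B had 302, 253 and 295 TPM and 240, 216 and 238 TPM, with counts that were not whole, while HSPA6, which is induced by strong heat stress, had 1.07, 0.74 and 1.14 TPM. The small heat shock gene HSPB1 had 1212, 1018 and 1133 TPM and its regulator HSF1 had 85.5, 70.6 and 76.9 TPM.

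Of 32 genes of the NRF2 and detoxifying list 27 were on (84.4%) and 16 were high, and GPX2 was the only silent one. FTL led, as given above. PRDX1, a peroxiredoxin, had 2693, 2940 and 2683 TPM, and AKR1B1, aldose reductase, 2074, 2039 and 2151 TPM. Between them there was no overlap in any library. FTH1, the ferritin heavy chain, had 1703, 1829 and 1775 TPM, with a ratio of FTL to FTH1 of 2.75 ± 0.243. NQO1 had 154, 161 and 163 TPM, HMOX1 52.2, 50 and 55.5 TPM and TXNRD1 173, 182 and 164 TPM. NFE2L2, which encodes NRF2, had 63.2, 69.6 and 59 TPM and its inhibitor KEAP1 79.8, 71.5 and 77.3 TPM. The NRF2 targets SLC7A11 and AKR1C1 were near 1 TPM or below it, at 1.51, 1.83 and 1.57 TPM and 0.55, 0.54 and 0.79 TPM. GPX1 stood above GPX3 by a ratio of 7.76 ± 0.714.

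Metallothioneins, small proteins that bind zinc and copper, spanned the whole range. The list of 13 genes holds 11 metallothionein genes, the zinc exporter SLC30A1 and the metal-sensing transcription factor MTF1, and 9 of the 13 were on. MT2A led, as given above. MT1E had 886, 802 and 861 TPM and MT1X 311, 314 and 352 TPM. These 3 did not overlap, and the ratio of MT2A to MT1E was 5.15 ± 0.195. MT1F had 72, 88.5 and 89.5 TPM, MT1A 75, 73.7 and 84.9 TPM, MT1M 51.4, 39.7 and 57.6 TPM and MT1G 8.58, 12.9 and 14.7 TPM. MT1H, MT1B and MT4 were listed at 0 counts, and MT3 had 1 count. Several members had counts that were not whole, MT2A and MT1X among them, so their split is uncertain. MTF1 had 9.44, 10.3 and 10.3 TPM. MTF1 binds metal response elements, whose core is TGCGCNC or TGCACNC. The promoters of a very high, a high and a silent member are shown to set these letters side by side, with matches on either strand in capitals and with overlapping matches both counted: MT2A (chr16:56608334-56608583, plus strand), MT1X (chr16:56682220-56682469, plus strand) and MT1H (chr16:56669564-56669813, plus strand), all from RefSeq, GRCh38.p14.
MT2A: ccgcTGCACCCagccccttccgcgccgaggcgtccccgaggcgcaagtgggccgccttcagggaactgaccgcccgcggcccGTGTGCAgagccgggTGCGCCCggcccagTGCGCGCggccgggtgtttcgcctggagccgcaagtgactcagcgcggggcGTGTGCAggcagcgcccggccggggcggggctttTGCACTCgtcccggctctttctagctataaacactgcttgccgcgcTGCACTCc
MT1X: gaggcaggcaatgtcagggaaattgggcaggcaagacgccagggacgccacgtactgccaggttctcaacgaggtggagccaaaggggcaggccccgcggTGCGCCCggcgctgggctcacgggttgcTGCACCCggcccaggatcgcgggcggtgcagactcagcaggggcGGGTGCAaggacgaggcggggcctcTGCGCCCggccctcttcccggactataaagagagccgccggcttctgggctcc
MT1H: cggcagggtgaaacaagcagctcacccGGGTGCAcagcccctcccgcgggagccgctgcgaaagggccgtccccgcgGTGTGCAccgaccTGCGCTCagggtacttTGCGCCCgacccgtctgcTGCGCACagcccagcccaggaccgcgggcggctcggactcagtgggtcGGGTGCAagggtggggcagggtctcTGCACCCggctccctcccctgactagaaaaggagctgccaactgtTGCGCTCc
The windows held 7 matches in MT2A, 4 in MT1X and 8 in MT1H, while MT1B and MT4, both at 0 counts, held 3 each. At least 1 match was in 30% of the 11192 promoters, at least 3 in 2.07% and at least 5 in 0.143%. The number of matches did not follow the level among these 5 genes, since MT1H held the most. TATAAA was in the windows of MT2A, MT1X, MT1B and MT4 and not in that of MT1H. RefSeq promoters were matched for 5 of the 11 metallothionein genes.

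Genes of oxygen sensing were on with 1 exception. Of 24 genes 23 were on (95.8%), 7 were high and HIF3A was silent. LDHA, lactate dehydrogenase A, had 1034, 1141 and 1030 TPM. HIF1A had 495, 523 and 448 TPM and BNIP3, a mitophagy receptor, 207, 234 and 212 TPM. All 3 libraries gave this order, with no overlap. EPAS1, which encodes HIF-2 alpha, had 135, 129 and 136 TPM, with a ratio of HIF1A to EPAS1 of 3.67 ± 0.384. VHL, the subunit that marks HIF for breakdown, had 22.7, 23.2 and 22.6 TPM. The prolyl hydroxylase EGLN2 had 101, 86.4 and 96 TPM, against 14.6, 14.3 and 14.7 TPM for EGLN3 and 12.2, 13 and 12 TPM for EGLN1. CA9, a carbonic anhydrase and HIF target, had 8.02, 7.67 and 8.24 TPM, and its relative CA12 had 112, 111 and 107 TPM.

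All 35 cell cycle genes were on and 22 were high. MCM7 of the replicative helicase had 516, 492 and 536 TPM, CDC20, an activator of the anaphase-promoting complex, 519, 475 and 505 TPM and PCNA, the sliding clamp, 406, 390 and 398 TPM. PCNA stood below both others in every library, and MCM7 and CDC20 overlapped. MKI67 had 133, 142 and 133 TPM, TOP2A 213, 239 and 199 TPM and MYC 216, 205 and 221 TPM. Of 32 genes of growth arrest, apoptosis and telomere upkeep 30 were on (93.8%). CDKN2A, the locus of the inhibitors p16 and ARF, had 282, 275 and 249 TPM. BAX had 246, 219 and 233 TPM and DKC1, a telomerase component, 189, 209 and 185 TPM. The ranges of these genes were apart. RB1, the retinoblastoma protein, had 13.8, 14.6 and 12 TPM. CDKN1A, the cell cycle inhibitor p21, had 23.7, 22.4 and 26.8 TPM, with a ratio of CDKN2A to CDKN1A of 11.2 ± 1.63. UBE3A, the ligase that a papillomavirus protein recruits, had 16, 17.5 and 13.5 TPM. TERT, the catalytic subunit of telomerase, had 0.64, 0.61 and 0.72 TPM and was intermediate.

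Glycolysis was among the highest of all lists by level. Of 22 genes 18 were on (81.8%) and 12 were high. GAPDH and ENO1 were given above, and PKM, pyruvate kinase, had 2930, 2874 and 3015 TPM. TPI1 had 2339, 2344 and 2456 TPM and ALDOA 1646, 1475 and 1698 TPM. LDHB had 2091, 2366 and 2049 TPM, above LDHA by a ratio of 2.03 ± 0.0424. HK1 had 153, 153 and 157 TPM and HK2 27.7, 27.5 and 26.7 TPM, with a ratio of 5.66 ± 0.195.

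Of 49 drug-metabolising enzymes and regulators 24 were on (49%), 14 were silent (28.6%) and 9 were at 0 counts. GSTP1, a glutathione transferase, had 955, 786 and 960 TPM. MGST1, its microsomal relative, had 317, 382 and 321 TPM and GSTO1 237, 276 and 244 TPM. In no library did these levels overlap. GSTA1, a glutathione transferase of the proximal tubule, had 2 counts in 1 library. Among the P450 enzymes CYP1B1 had 14.8, 15.3 and 13.3 TPM and CYP2J2 4.06, 5.24 and 4.33 TPM, CYP3A4 had 1 count, and CYP2E1 and CYP3A5 were intermediate. UGT2B7, a glucuronidating enzyme of kidney, had 11.7, 14.2 and 13.1 TPM, while UGT1A9 was at 0 counts. The xenobiotic receptors NR1I2 and NR1I3 were at 0 counts, and AHR had 5.82, 6.85 and 4.65 TPM.

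Of 24 genes of complement and coagulation 21 were on (87.5%) and 7 were high. PLAU, the urokinase plasminogen activator, had 378, 365 and 375 TPM. PROCR, the protein C receptor, had 275, 261 and 282 TPM, below PLAU in all 3 libraries. The urokinase receptor PLAUR had 203, 179 and 189 TPM, so the enzyme and its receptor were both high. C3, the central complement protein, had 224, 220 and 239 TPM, while SERPING1, the inhibitor of C1, was at 0 counts. F3, tissue factor, had 7.48, 8 and 7.81 TPM and THBD, thrombomodulin, 0.67, 0.62 and 0.46 TPM.

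**Figure D5:**
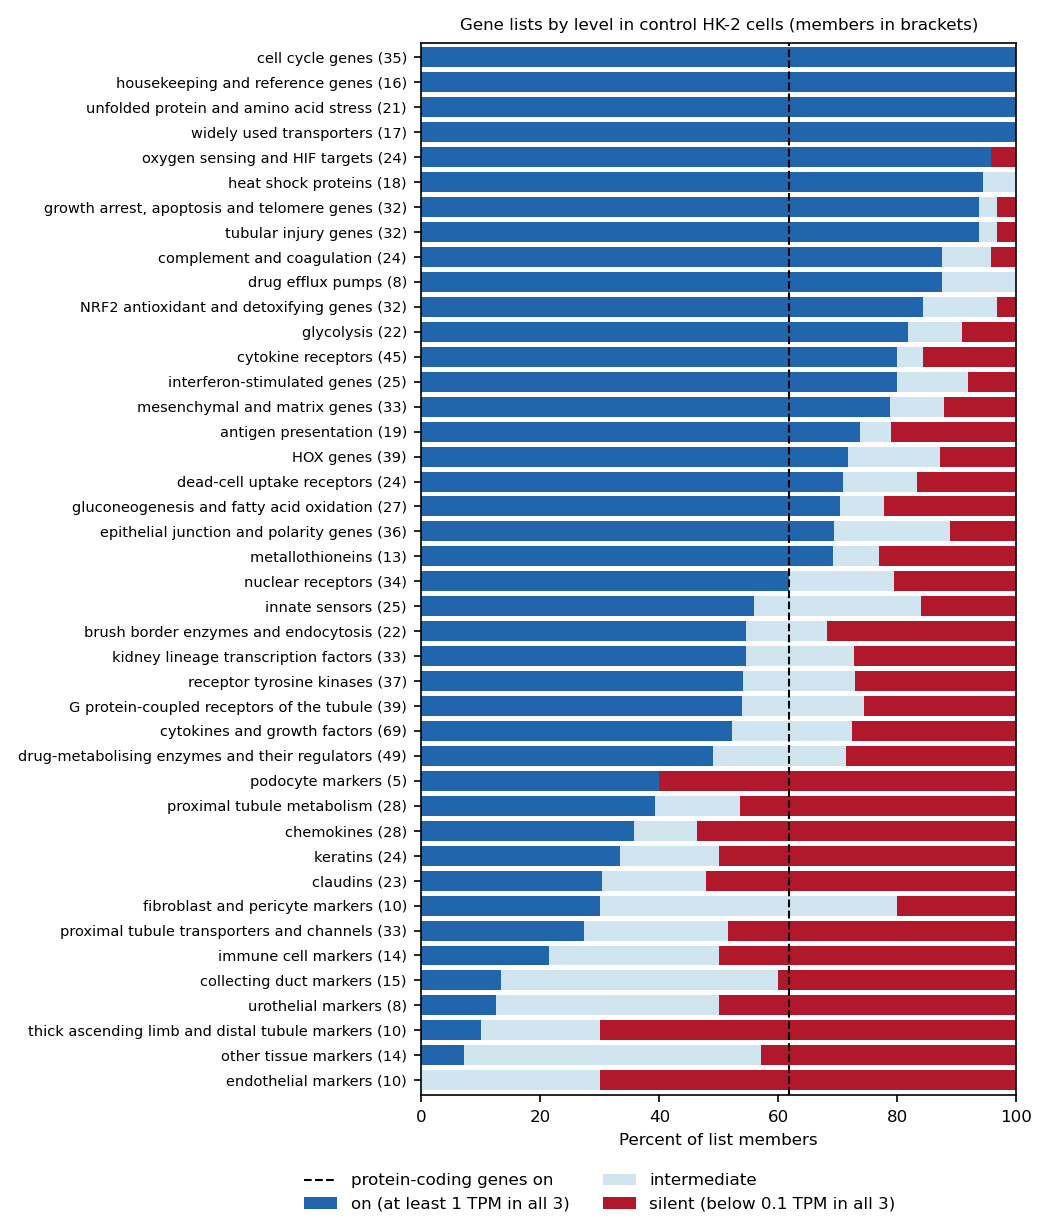
Share of the members of each gene list (number of members in brackets) that were on, intermediate or silent in the 3 Luc976 libraries, as stacked bars of percent (x axis), sorted by the share on. The dashed line marks the 61.8% of protein-coding genes that were on; cell cycle, unfolded protein, reference and widely used carrier genes are at 100% and endothelial markers at 0.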

How the data were processed

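RNA of the 3 HK-2 libraries labelled Luc976 was taken from 1 table of the whole series, with 26506 genes named by symbol; its 30 other columns of per-sample values were not used. The expected counts that the authors deposited estimate the reads of each gene and can be fractional, and of the genes with a count in a library 84.1% to 84.6% had exactly whole values. TPM values were scaled by the authors for length and library total, per the file headers, and each library sums to the same total. The submitters' processing notes name Bowtie 0.12.2, mm8 and mm9 without a role. These are mouse builds, while the symbols are human. The sources used here do not give the human build, the annotation, the strand setting or the quantifier.

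No groups were compared and no test across groups was made. Levels and ranks come from TPM. The spread between libraries was fitted with edgeR 4.0.16 on expected counts rounded to whole numbers, after filterByExpr (minimum count 10) and TMM scaling (factors 0.993 to 1.01), with an intercept as its single term, and the fit was tested on simulated data. Deviations from the mean of the libraries used log2(TPM + 1). Levels of genes with counts that are not whole are treated as uncertain, and the source of the fractions was not tested. Such counts are pointed out for some genes only. Other genes named here had them too, among them AXL, CDH6, HOXA9 and VHL, so their levels and ratios carry the same uncertainty. Of the symbols 25328 matched RefSeq (GRCh38.p14), which gave gene classes and promoters (250 bases before each start); 15212 of 19005 protein-coding genes had a promoter entry, and the 11192 with 1 start were summarised. GC content came from the longest transcript in GENCODE 29.

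The 43 gene lists (1030 different genes, 655 of them on and 223 silent) and the markers were chosen with earlier results of these data known. By rule, values in every library are given for the 5 markers, the 20 genes with the highest mean TPM, the leading 3 members of a list and silent members of pairs or families; the 10 genes on that varied most are also named, and other list members were chosen for their roles. Some genes covered by this rule are not reported here. Ratios, most pathway summaries and the promoters shown were chosen after values were seen. Other thresholds, scalings, pseudocounts, filters and leaving out each library were tried as alternatives.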

Additional observations from a re-analysis of the deposited data

How the results depend on the processing

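Genes on numbered 11665 (at least 2 TPM) to 13365 (at least 0.5 TPM) under the alternatives, against 12619, and 12708 to 12722 with 1 library left out. Silent genes numbered 8633 (0 counts) to 12284 (below 0.5 TPM), against 10005, and 10301 to 10353 with 1 library left out. Both classes require the limit in every library, so leaving 1 out can only raise these counts. The direction of that change is therefore no check of them. The share of the 100 most abundant genes, 33% of TPM, was 19.6% as a share of expected counts and 24.9% of TPM rescaled without ribosomal protein and mitochondrial rRNA-like genes, and 32.8% to 33.1% with 1 library left out. The coefficient of variation, 6.08%, was 6.07% with RLE scaling and 6.12% without the filter; with 1 library left out it was 3.5% (without library 2) to 7.47%. The median SD of log2(TPM + 1), 0.09, was 0.054 without library 2, 0.092 at most with 1 library left out and 0.098 with a pseudocount of 0.1; the cause of the difference made by library 2 was not tested. Of 86 counts of list members at 0.5 or 2 TPM, 82 were within 1.5 times those given; the exceptions were thick ascending limb and distal tubule markers (0 at 2 TPM), urothelial markers (0 at 2 TPM), collecting duct markers (4 at 0.5 TPM) and other tissue markers (2 at 0.5 TPM), lists in which 1 or 2 members were on. Ranks by CPM differed from those by TPM by more than the SD of the rank over libraries in 24 of the 25 genes made up of the 5 markers and the 20 highest. No paired analysis was possible because no result compares groups of samples. Depth limits low levels: 3 counts are 0.152 to 0.175 CPM in a single library.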

Other observations

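Seen by pathway, using the KEGG terms of the authors' deposited table (288 pathways with at least 20 genes), the share of genes on ran from 4.57% to 100%. In all, 4528 of the 7173 genes with any pathway were on (63.1%). Aminoacyl-tRNA biosynthesis had 44 of 44 genes on, RNA polymerase 30 of 30, the spliceosome 129 of 132, DNA replication 35 of 36, the citrate cycle 28 of 30 and the proteasome 42 of 46. At the other end, olfactory transduction had 19 of 416 genes on (4.57%), nicotine addiction 3 of 40, taste transduction 10 of 82, asthma 4 of 28, autoimmune thyroid disease 9 of 50 and neuroactive ligand-receptor interaction 53 of 276 (19.2%). Kidney pathways lay between. Proximal tubule bicarbonate reclamation had 15 of 23 genes on (65.2%), collecting duct acid secretion 19 of 27, aldosterone-regulated sodium reabsorption 26 of 37 and vasopressin-regulated water reabsorption 35 of 44, while drug metabolism by cytochrome P450 had 18 of 69 (26.1%).

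By family, 180 of 332 solute carriers were on (54.2%), led by the mitochondrial carriers SLC25A5, SLC25A3 and SLC25A6, the last at 554, 466 and 554 TPM. The zinc carriers SLC39A7 and SLC39A1 had 294, 285 and 307 TPM and 237, 240 and 249 TPM. Of 472 genes with ZNF symbols, mostly zinc finger factors, 392 were on (83.1%), against 17 of 44 collagen chains (38.6%), 13 of 55 cytochrome P450 genes (23.6%) and 2 of 358 olfactory receptors (0.559%). All 16 reference genes in common use were on, and they spanned a wide range, with PPIA at 1827, 2071 and 1976 TPM, HPRT1 at 97.1, 107 and 99.2 TPM and TBP at 28.1, 27.2 and 26.2 TPM. GUSB, at 113, 111 and 111 TPM, differed between libraries by less than 2 TPM.

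The long non-coding RNA NEAT1 had 113, 113 and 105 TPM, MALAT1 50.2, 53.5 and 47.6 TPM and the imprinted H19 4.92, 5.36 and 4.98 TPM. Nuclear copies of mitochondrial ribosomal RNA genes, MTRNR2L2 and MTRNR2L8, were listed at 2384, 2609 and 2075 TPM and 1861, 1941 and 1605 TPM with counts that were not whole; reads of mitochondrial RNA and of these copies cannot be told apart here. The core histone gene HIST1H4C, whose message normally carries no poly(A) tail, had 5, 3 and 1 counts. Another histone gene, HIST1H1C, was on at 4.28, 2.47 and 4.42 TPM from 27, 16 and 25 counts.

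Of the 10 genes on that varied most between libraries, 5 rested on few reads. SNHG25 had 1, 1 and 5 counts, SNORA81 5, 5 and 1, SNORA57 4, 3 and 1, SNORA70 3, 8 and 3 and LOC102724094 15, 6 and 4. LOC100132062 and LOC100132287 had nearly the same values, 4.93, 1.15 and 4.3 TPM and 4.93, 1.15 and 4.28 TPM, with counts that were not whole. The pseudogene RPL21P28 had 223, 228 and 93.3 TPM, low in library 3. ACTA1, skeletal muscle actin, had 11.9, 3.93 and 9.32 TPM and TPM2, a tropomyosin of muscle, 6.05, 1.71 and 4.65 TPM. Other muscle genes were looked up after these values were seen. Some of these had their lowest level in library 2 as well, while ACTA2 and TAGLN, given above, had theirs in library 1. The genes were picked by hand, and the share of all genes that were lowest in library 2 was not counted. How unusual such genes are therefore cannot be judged. Among those lowest in library 2, TNNC2, a troponin, had 6.56, 3.02 and 7.5 TPM. COX6A2, a muscle subunit of cytochrome c oxidase, had 5.58, 2 and 3.6 TPM, and CKM, muscle creatine kinase, 2.13, 0.75 and 1.65 TPM. MYH7, a myosin heavy chain, had 1.19, 0.12 and 0.46 TPM, and CNN1, calponin, 5.12, 2.36 and 3.94 TPM. The counts of MYH7 and ACTA1 were not whole. The cause of this difference was not tested.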
